A study of Homo sapiens with 8 samples.

Results

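The genes described here are CACNA1B, OPRL1, CELF6, SRRM4 and VGF, 5 of the 187 genes in the deposited table of NCI-H295R cells deprived of serum. They were picked by name as neuronal and neuroendocrine genes, with their difference between serum-deprived and control cells already known. Their differences in that comparison are therefore given as a description. NCI-H295R is a human line grown from a carcinoma of the adrenal cortex and used as a model of steroid hormone synthesis. In 4 libraries the cells had been kept in medium lacking both NU-I serum and the ITS supplement (insulin, transferrin and selenium). In the 4 control libraries the medium held both, and the base medium (DMEM-F12 with L-glutamine and HEPES) and the antibiotics were common to all cells. Polyadenylated RNA was sequenced, and the tabulated genes held between 262373 and 359195 estimated counts in a library, which is only a part of its depth. The sources used here do not state how long the cells went without serum or whether each library had its own culture, so the p-values measure the spread between libraries, which may be technical.

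Neurons and endocrine cells share a machinery for regulated secretion. Peptide precursors are packed into dense-core granules, calcium entering through voltage-gated channels releases their contents, receptors on the surface tune that release, and neuron-enriched RNA-binding proteins shape the splicing of transcripts in such cells. CACNA1B encodes the pore-forming subunit of the N-type calcium channel, which triggers transmitter release at nerve endings. OPRL1 encodes the nociceptin receptor, a G protein-coupled receptor related to the opioid receptors. SRRM4 is a splicing activator that promotes the inclusion of very short neuronal exons, and CELF6 is an RNA-binding protein of the CELF family. VGF, a granule protein induced by nerve growth factor in rat PC12 cells, is secreted and cut into bioactive peptides. In the adrenal gland regulated granule secretion is the trade of the chromaffin cells of the medulla, whereas steroid-producing cortical cells release their hormones without storing them.

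In serum-deprived cells the channel gene, the receptor gene and both RNA-binding protein genes were higher, and the secreted granule protein gene VGF was lower. In the edgeR quasi-likelihood test over all genes of the table (Benjamini-Hochberg adjusted p under 0.05), 4 of the 5 genes were called higher, against 36.9% of the 187 genes, and 1 was called lower, against 48.1%. The genes had been chosen on this contrast, and the table itself lists genes selected by the authors as changed, so these shares carry no information about the 5 genes. For all 5 genes the groups did not overlap, with all serum-deprived values above the controls in 4 (26.2% of the table) and below them in 1 (40.1% of the table), where 66.3% of the table had no overlap in either direction. In RNA from whole cultures, a change in the number of cells that express a gene and a change in the RNA per cell cannot be told apart.

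Promoter sequence is shown for VGF and CELF6, which differed in opposite directions and hold the same element, and for CACNA1B, which shares another element with VGF. RefSeq gives 1 promoter window for CACNA1B, SRRM4 and VGF, 2 for CELF6 and 3 for OPRL1, and the 250 bases before each start were searched on both strands. The stretches run 5′ to 3′ on the gene's strand, from base 120 to base 31 before the RefSeq start (GRCh38.p14), at chr7:101165600-101165689 (minus strand) for VGF, chr15:72320188-72320277 (minus strand) for CELF6 and chr9:137877662-137877751 (plus strand) for CACNA1B. Capitals mark the elements found.
VGF: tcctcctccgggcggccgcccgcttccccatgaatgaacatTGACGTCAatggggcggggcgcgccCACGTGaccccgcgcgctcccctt
CELF6: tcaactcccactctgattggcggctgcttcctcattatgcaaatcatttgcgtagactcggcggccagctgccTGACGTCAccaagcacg
CACNA1B: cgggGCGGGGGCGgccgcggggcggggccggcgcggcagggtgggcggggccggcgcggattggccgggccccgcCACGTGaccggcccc
The full cyclic AMP response element, TGACGTCA, occurred in VGF 79 to 72 bases before the start. In CELF6 it lay 47 to 40 bases before the start in 1 of the 2 windows, which is the window shown. The other CELF6 window held none of the sequences searched. The element occurred in 1.65% of all 35116 windows. The E-box CACGTG occurred in VGF 54 to 49 bases and in CACNA1B 45 to 40 bases before the start, and in 6.34% of windows. One OPRL1 window, not shown, held that E-box at 2 places, 200 to 195 and 75 to 70 bases before its start. The letters GCGGGGGCG, bound by EGR1, occurred in CACNA1B 116 to 108 bases before the start, in 2 of the 3 OPRL1 windows and in 4.72% of all windows. For the serum response element only 1 exact sequence was searched, and other forms of that element were not. That sequence was in 0.0313% of windows and in none of these genes, so whether they hold another form was not tested. SRRM4 held none of the 4 sequences searched. A match in the letters is a description of the sequence, and whether any factor bound there was not measured.

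CACNA1B lies on chromosome 9 from 137877789 to 138124624 on the plus strand (GRCh38, GENCODE 29), and its longest coding transcript has 47 exons. It had 643, 333, 365 and 336 scaled counts (estimated counts divided by a size factor for each library) in serum-deprived replicates 1 to 4, against 201, 242, 231 and 204 in control replicates 1 to 4. All 4 serum-deprived libraries lay above all 4 controls, and serum-deprived replicate 1 stood far above the other three. The means were 419 ± 150 in serum-deprived and 219 ± 20.2 in control cells (SD, n = 4 each), a 1.91-fold difference with a log2 fold change of 0.93 ± 0.22 (SE). Without replicate 1 of both groups the log2 fold change was 0.61, with means of 345 ± 18.0 and 225 ± 19.6 (SD, n = 3 each). Before scaling, the groups overlapped, with the lowest serum-deprived estimated count at 284 and the highest control count at 293.

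OPRL1 lies on chromosome 20 from 64080173 to 64100643 on the plus strand, and LKAAEAR1 lies within it on the opposite strand. It had 50.4, 45.8, 33.0 and 27.9 scaled counts in serum-deprived replicates 1 to 4, against 0.0145, 9.74, 25.3 and 18.9 in control replicates 1 to 4. The receptor gene was thus near 0 in one control library and close to the lowest serum-deprived library in another. The means were 39.3 ± 10.6 in serum-deprived and 13.5 ± 11.01 in control cells (SD, n = 4 each). The log2 fold change was 1.52 ± 0.58 (SE), and it was 0.99 when replicate 1 of both groups was left out. Its edgeR call was lost with the numbers as a replicate block (adjusted p = 0.0625), without scaling (adjusted p = 0.0546) and on omission of any of 3 single libraries (adjusted p of 0.052 for serum-deprived replicate 1, 0.0725 for serum-deprived replicate 2 and 0.0803 for control replicate 2).

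The counts behind OPRL1 were the lowest of the 5 genes. They summed to 147 over the 4 serum-deprived libraries and 58.7 over the 4 controls, and the mean over all 8 libraries, 25.7, is under the mean of 30 that the name of the deposited table gives as its limit. The exact Poisson 95% interval, which covers counting error only, was 15.4 to 35.7 for the 23.6 estimated counts of serum-deprived replicate 4 and 19.4 to 41.6 for the 28.996 of control replicate 3, so these libraries cannot be separated at this depth. Control replicate 1, with an estimated count of 0.0144, had an interval of 0 to 3.69, and where a ratio is taken to it below, the one-sided limit of 3 counts that a count of 0 allows stands in for its value. Of the 8 values of OPRL1, 1 was within 0.01 of a whole number. How the remaining reads were divided among transcripts is not known.

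CELF6 lies on chromosome 15 from 72284727 to 72320129 on the minus strand, where 2 other annotated genes overlap it on the same strand and 1 on the other. It had 46.6, 67.7, 51.3 and 69.2 scaled counts in serum-deprived replicates 1 to 4, against 2.32, 33.9, 20.9 and 15.1 in control replicates 1 to 4. Every serum-deprived library was above every control, and control replicate 1 was far below the other controls. The means were 58.7 ± 11.5 in serum-deprived and 18.1 ± 13.1 in control cells (SD, n = 4 each), with a log2 fold change of 1.68 ± 0.48 (SE). Without replicate 1 of both groups it was 1.40. Before scaling, the groups overlapped, since control replicate 2 had an estimated count of 41.1 and serum-deprived replicate 1 one of 39.5. None of the 8 values was within 0.01 of a whole number, and how far reads were divided with the overlapping genes is not known.

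SRRM4 lies on chromosome 12 from 118981495 to 119163051 on the plus strand, and 2 annotated genes overlap it on the same strand and 1 on the other. It had 243, 214, 240 and 251 scaled counts in serum-deprived replicates 1 to 4, against 96.5, 124, 151 and 142 in control replicates 1 to 4. The groups were well apart, and they remained apart in the unscaled counts. The means were 237 ± 16.2 in serum-deprived and 128 ± 23.8 in control cells (SD, n = 4 each), and the log2 fold change was 0.88 ± 0.17 (SE). It was 0.76 without replicate 1 of both groups. The splicing activator was the steadiest of the 4 higher genes in serum-deprived cells, with a coefficient of variation of 6.82%, against a median of 19.1% over all 187 genes.

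VGF lies on chromosome 7 from 101162509 to 101165593 on the minus strand, with 2 exons and no overlapping gene. It had 1184, 994, 1152 and 993 scaled counts in serum-deprived replicates 1 to 4, against 1357, 1817, 1888 and 2107 in control replicates 1 to 4. The granule protein gene was lower in every serum-deprived library than in any control, and control replicate 1 was the lowest control. The means were 1080 ± 102 in serum-deprived and 1792 ± 316 in control cells (SD, n = 4 each), with a log2 fold change of -0.73 ± 0.15 (SE), or 1.66-fold lower. Without replicate 1 of both groups it was -0.89. All 8 values were within 0.01 of a whole number. With median-of-ratios size factors the groups of VGF overlapped, and 4 of the 5 genes then had no overlap, against 63.1% of the table. In the unscaled counts 2 of the 5 genes, SRRM4 and VGF, had no overlap, against 51.9%.

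**Figure D1:**
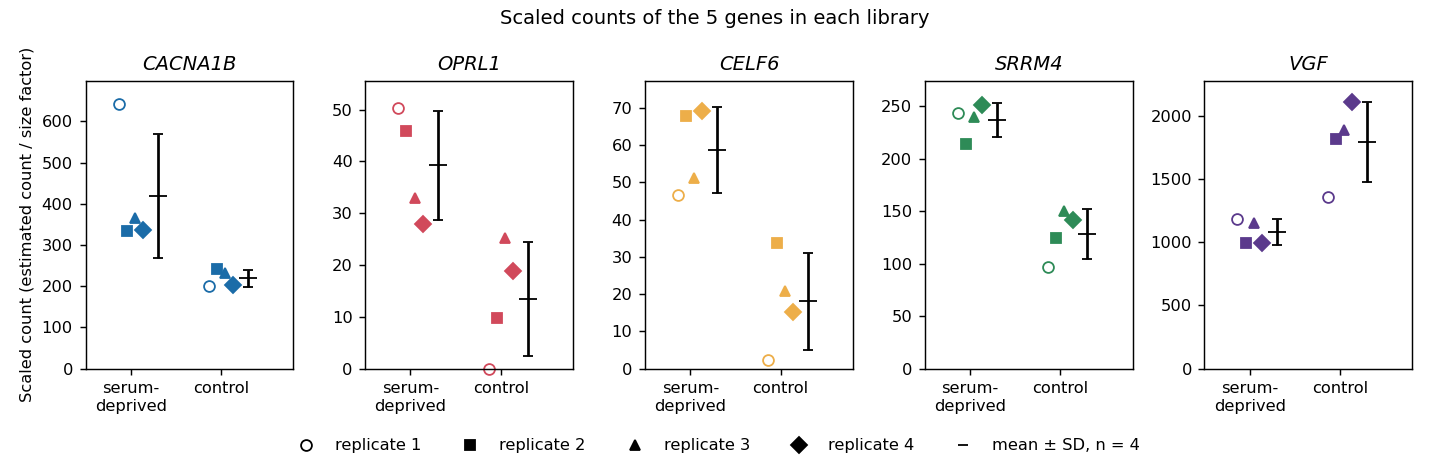
Scaled counts (y axis, estimated count divided by size factor, each panel with its own axis from 0) of the 5 genes in 4 serum-deprived (left) and 4 control libraries (right), with the mean ± SD. Open circles are replicate 1; the serum-deprived one is the highest for CACNA1B at 643, and the control ones are near 0 for OPRL1 and CELF6.

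The replicate 1 libraries stood apart from the rest of their group across the table, with Spearman correlations over genes of 0.919 to 0.927 with the other serum-deprived libraries and 0.9475 to 0.9499 with the other controls. Replicates 2 to 4 correlated with each other at 0.969 or more in the serum-deprived group and 0.977 or more in the control group. Libraries with the same number tended to deviate together from their group means, but only weakly for replicates 3 and 4 (correlations of 0.111 and 0.122). The ratio within each numbered pair was therefore also taken.

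In all 4 pairs the 4 higher genes were higher in the serum-deprived library and VGF was lower, except that with median-of-ratios size factors VGF turned in the replicate 1 pair, with 1302 in the serum-deprived and 1284 in the control library. With TMM scaling VGF had 1389 in the serum-deprived and 1392 in the control library of that pair, so its direction there rests on the scaling. The replicate 1 pair gave the largest ratio for each of the 4 higher genes and the smallest for VGF. CACNA1B was 3.20-fold higher in that pair and 1.38-fold to 1.65-fold higher in the other three. SRRM4 was 2.52-fold higher in the replicate 1 pair, against 1.59-fold to 1.77-fold elsewhere. CELF6 was 20.1-fold higher there, with an exact 95% counting interval of 6.09 to 201-fold from 40 against 2 rounded counts, and 2.0-fold to 4.58-fold higher in the other pairs. OPRL1 was at least 16.7-fold higher in the replicate 1 pair, taking 3 counts for the control library, 4.71-fold higher in the replicate 2 pair, and 1.31-fold and 1.48-fold higher in the replicate 3 and 4 pairs. VGF was 1.15-fold lower in the replicate 1 pair and 1.64-fold to 2.12-fold lower in the other three.

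Across the table the replicate 1 pair gave the largest change for 27 of the 93 genes that the authors' deposited table lists as higher (29.03%) and the smallest for 47 of them (50.5%), with a median log2 ratio of 0.49, the lowest of the 4 pairs. For the 94 genes it lists as lower, the replicate 1 pair gave the largest change for 23 (24.5%) and the smallest for 47 (50.0%). With the scaling used here, the replicate 2, 3 and 4 pairs gave the largest change for 16.1%, 22.6% and 32.3% of the 93 higher genes. A largest change in the replicate 1 pair, as in the 4 higher genes described here, was thus not rare, although the smallest change fell there more often. VGF had its smallest change in the replicate 1 pair, as did 50.0% of the 94 lower genes. Another scaling shifts the log2 ratios of all genes in a pair together. With TMM scaling that of CACNA1B moved from 1.68 to 1.87 in the replicate 1 pair and from 0.72 to 0.57 in the replicate 4 pair. Together these shifts exceed the gap between the medians of the replicate 1 and 4 pairs over the 93 higher genes (0.49 and 0.75). With TMM scaling the replicate 1 pair therefore does not have the lowest median. For each of the 4 higher genes described here, the replicate 1 pair kept the largest ratio under every scaling run. The numbers of genes with their largest or smallest change in each pair were not counted under other scalings and may rest on the scaling. The genes were chosen with their mean difference over all 8 libraries known, to which a large replicate 1 ratio adds, and this order of the pairs was not tested.

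**Figure D2:**
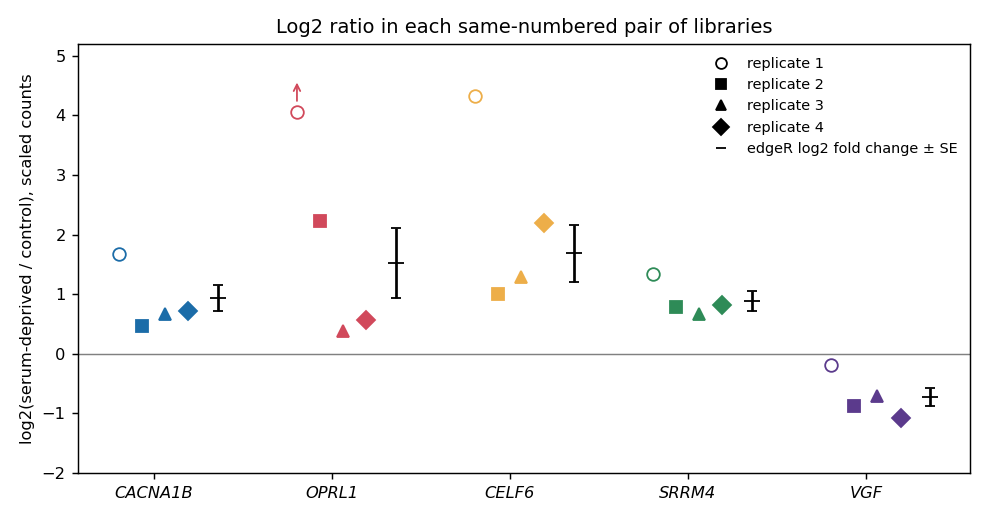
Log2 ratio of serum-deprived to control scaled counts (y axis) in each same-numbered pair of libraries for the 5 genes (x axis), beside the edgeR log2 fold change ± SE. The open circle (replicate 1) is the highest point for CACNA1B, OPRL1, CELF6 and SRRM4 and the nearest to 0 for VGF; the arrow marks a lower bound for OPRL1 at 4.06.

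Among the 4 higher genes the order of log2 fold changes was CELF6 (1.68), OPRL1 (1.52), CACNA1B (0.93) and SRRM4 (0.88). The neighbours CELF6 and OPRL1, and likewise CACNA1B and SRRM4, differed by less than the SE of either. Without replicate 1 of both groups SRRM4 came before CACNA1B. The median log2 fold change was 0.63 over the 93 higher genes of the table and -0.81 over the 94 lower genes, from which VGF at -0.73 differed by less than its SE. The authors' deposited table gives log2 fold changes of 1.45 for CELF6, 1.03 for OPRL1, 0.66 for CACNA1B, 0.80 for SRRM4 and -0.84 for VGF. For each of the 5 genes the authors' value lay nearer to the value without replicate 1 than to that over all 8 libraries. Values without scaling were also nearer to the authors' for CACNA1B (0.70), OPRL1 (1.31), CELF6 (1.44) and VGF (-0.93), but not for SRRM4 (0.68). The scaling that the authors used is not known, and the reason for either likeness was not tested. The authors' deposited FDR was 0.0394 for OPRL1 and at most 0.000211 for the other four.

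The low-count genes were also the most variable in control cells. The coefficient of variation between controls was 81.7% for OPRL1 and 72.5% for CELF6, against a median of 17.7% over the 187 genes, and 1 and 3 genes of the table exceeded them. It was 9.23% for CACNA1B, 18.6% for SRRM4 and 17.6% for VGF. In serum-deprived cells the order differed. CACNA1B had the largest, 35.7%, which came from replicate 1, while OPRL1 had 26.9%, CELF6 19.5% and VGF 9.41%.

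Per kilobase of transcript, taking the GENCODE 29 transcript with the longest coding sequence, VGF was by far the most abundant of the 5 genes in both groups. Its level was 420 ± 39.5 scaled counts per kilobase in serum-deprived and 696 ± 123 in control cells (SD, n = 4 each, here and below). CACNA1B followed with 43.4 ± 15.5 in serum-deprived and 22.7 ± 2.10 in control cells, and SRRM4 with 27.9 ± 1.91 in serum-deprived and 15.1 ± 2.81 in control cells. CELF6 had 17.5 ± 3.42 per kilobase in serum-deprived and 5.40 ± 3.91 in control cells, and OPRL1 had 11.7 ± 3.14 in serum-deprived and 4.002 ± 3.27 in control cells. Only the lowest neighbours, CELF6 and OPRL1, overlapped within a group, with 13.9 to 20.7 against 8.29 to 15.0 per kilobase in serum-deprived cells and 0.695 to 10.1 against 0.0043 to 7.50 in control cells. The transcripts that the cells used are not known, and a shorter one would raise the level of its gene.

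**Figure D3:**
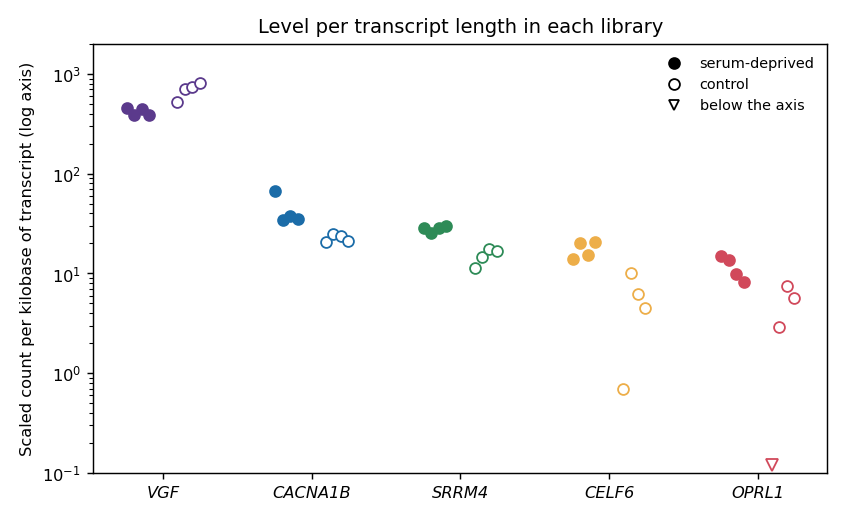
Scaled counts per kilobase of the longest coding transcript (y axis, log scale) in each library for the 5 genes, serum-deprived libraries filled and control libraries open. VGF lies between 385 and 818 in all 8 libraries, and 1 control library of OPRL1 falls below the axis.

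Each gene was compared in profile with the 182 other genes of the table, as the mean absolute difference over the 8 libraries between log2(scaled count + 0.5) values centred on each gene's mean. NFATC2, a calcium-regulated transcription factor, at 0.087, and LSS, lanosterol synthase, at 0.13, were the nearest to CACNA1B, against a median of 0.73 over the 182 genes. SPHKAP, a protein kinase A anchoring protein, at 0.10, and NID2, a basement membrane protein, at 0.13, were nearest to SRRM4, with a median of 0.73. TSPAN18, a tetraspanin, and AL049839.2, both at 0.11, were nearest to VGF, with a median of 0.58. The low-count genes had no such close neighbour. Their distances include control replicate 1, with 0.0145 scaled counts of OPRL1 and 2.32 of CELF6. How far that library sets the distances was not tested. CLEC18C at 0.61 and CDHR1 at 0.63 were nearest to CELF6, with a median of 1.36, and DNAH10 at 0.90 and RAB43 at 0.98 to OPRL1, with a median of 1.55. Every gene of the table was selected for a step between the groups, and that step adds to each likeness.

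Lists of genes with related roles held few tabulated genes, 6 of 85 symbols, of which 5 are the genes above. CACNA1B was the 1 tabulated gene of 18 voltage-gated calcium channel subunits, OPRL1 the 1 of 8 opioid and nociceptin receptors and precursors, and VGF the 1 of 13 granule cargo and processing genes. SRRM4 and CELF6 were the 2 of 18 neuronal splicing and RNA-binding genes. Of 13 vesicle release genes only CADPS was tabulated, which primes dense-core granules for calcium-triggered release. It had 1324, 879, 951 and 978 scaled counts in serum-deprived replicates 1 to 4, against 801, 558, 602 and 576 in control replicates 1 to 4. The groups did not overlap, and CADPS rose 1.63-fold (log2 fold change 0.70 ± 0.17, SE; edgeR adjusted p = 0.00513), by nearly the same ratio in every pair, between 1.58-fold and 1.70-fold. SV2B, a synaptic vesicle glycoprotein on no list and singled out after its values were seen, had 5252, 2827, 3210 and 3125 in serum-deprived replicates 1 to 4, against 2744, 2053, 1873 and 1769 in controls. It rose 1.71-fold (edgeR adjusted p = 0.00819). In this test 36.9% of the 187 genes were called higher, and all had been selected as changed, so both p-values are a description. The table holds changed genes only, so the genes of these lists that it lacks were not analysed here, and how the list as a whole moved cannot be said.

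Markers of other cells were looked for in the same way. None of the 10 markers of chromaffin cells and none of 7 of fibroblasts were in the table and their levels were not analysed here, so the part of other cells in these differences was not tested. Of 15 adrenocortical markers 4 were tabulated, HSD3B2, MRAP, INHA and DLK1, all called lower in serum-deprived cells in the edgeR test, against 48.1% of the table. The table holds changed genes only, and the adrenocortical markers that it lacks were not analysed here. How these markers moved as a whole cannot be said. HSD3B2 ranged from 380 to 1233 scaled counts in serum-deprived and from 1294 to 2778 in control libraries. MRAP ranged from 33.1 to 51.1 in serum-deprived and from 65.1 to 114 in control libraries, and INHA from 165 to 204 in serum-deprived and from 290.1 to 336 in control libraries. DLK1 ranged from 46134 to 54424 scaled counts in serum-deprived and from 67287 to 77272 in control libraries.

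**Figure D4:**
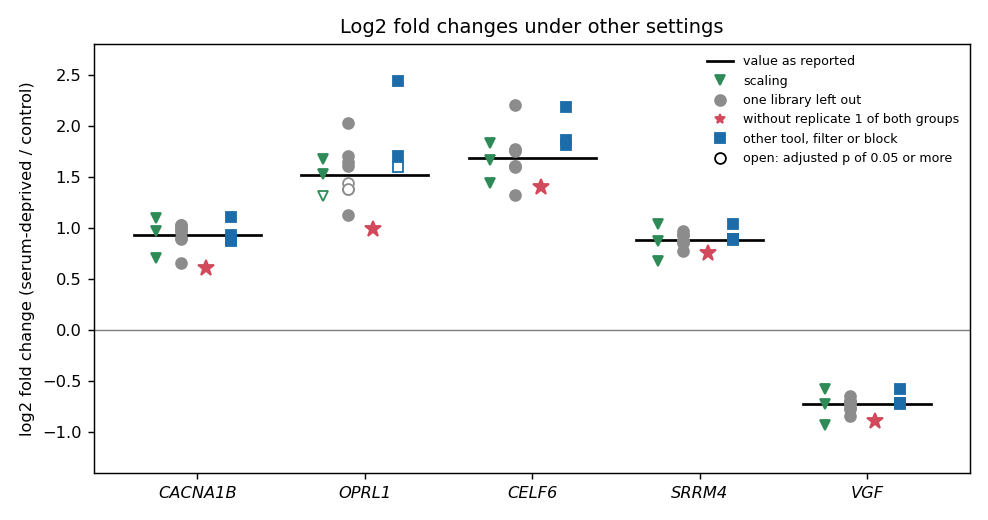
Log2 fold changes (y axis, serum-deprived over control) of the 5 genes under other scalings, tools, a low-count filter, a replicate block and with libraries left out, beside the value as reported (black line). All points keep their side of 0; open symbols mark an adjusted p of 0.05 or more, which occur for OPRL1 alone.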

How the data were processed

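Stranded single-end libraries of 76 bases were made from polyadenylated RNA according to the labels' protocols. For 187 genes the authors deposited estimated counts in 8 libraries together with a log2 fold change and, as an adjusted p-value, an FDR per gene. The submitters' processing notes name kallisto, edgeR, cutadapt and FastQC and the build GRCh38, with no versions or roles. Columns named for starvation and normal medium were matched to samples by condition and number, and 0 columns belonged to other samples. Library depth is unknown.

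The 5 genes, the lists and the alternatives were chosen with earlier results of these data known. Named genes were the 5, tabulated genes of the role lists and the 2 nearest profiles per gene; SV2B was added after its values were seen. Size factors (0.846 to 1.21) were medians of ratios within each group (pseudocount 0.5). Between groups, the widest empty interval of log2 ratios with at least 20 genes on each side, -0.41 to 0.02, was centred on 0, since the table holds changed genes only. The centre of that interval was -0.20. Rounded counts of all 187 genes were tested with edgeR 4.0.16 (R 4.3.3; glmQLFit, glmQLFTest), two-sided, 2 groups, no covariate, Benjamini-Hochberg threshold 0.05; SEs came from the F statistic. Alternatives used TMM, median-of-ratios or no scaling, DESeq2 1.42.0, limma-voom (limma 3.58.1), a mean count of at least 100, a replicate block and omitted libraries. Both the scaling and the test were tested on simulated data. The data simulated for the scaling held an empty interval by construction. Neither simulation held a library that stood apart from its group, so such a case was not tested. Same-numbered libraries correlated in their deviations across genes by 0.216, 0.377, 0.111 and 0.122 for replicates 1 to 4. Differently numbered libraries gave -0.277 to 0.082. The numbers were taken to pair the libraries, though the margin was small for replicates 3 and 4. No 2 libraries of a group were duplicates (chi-square per degree of freedom of 4.27 or more). Python 3.11.15 and scipy 1.17.1 served the other steps. Promoters are RefSeq's, positions GENCODE 29's.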

Additional observations from a re-analysis of the deposited data

Results flagged for a closer look

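In 34 groups of 4 libraries (17 named genes), 3 had a library far from the rest, where chance marks about 1 group in 20, and all 3 were serum-deprived replicate 1. CACNA1B stood at 643 scaled counts there, with a gap to the next library of 0.895 of the group's range. SV2B, at 5252, and LSS, at 10914, each had a gap of 0.842 of the range. LSS was examined because its profile was near that of CACNA1B, and SV2B was singled out after its values were seen, so the 3 are not separate observations.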

How the results depend on the processing

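The 5 genes kept their direction under every alternative run. CACNA1B, CELF6, SRRM4 and VGF also kept their edgeR, DESeq2 or limma-voom calls, with log2 fold changes of 0.61 to 1.10, 1.32 to 2.20, 0.68 to 1.04 and -0.93 to -0.57. OPRL1 ranged from 0.99 without replicate 1 of both groups to 2.44 in limma-voom. Its call was lost with the replicate block (1.60, edgeR adjusted p = 0.0625), without scaling (1.31, edgeR adjusted p = 0.0546) and when serum-deprived replicate 1 or 2 or control replicate 2 was omitted (edgeR adjusted p of 0.052 to 0.0803); the cause was not tested. Leaving out 1 library gave 1.12 to 2.03 for OPRL1. The replicate block changed no other call of the 5 genes. CELF6 and OPRL1 are under a mean count of 100 and have no value with that filter, which left 107 genes, 36 called higher and 55 lower. Of all tabulated genes, 69 were called higher and 90 lower. There were 21 higher and 91 lower calls without scaling, 82 and 77 in DESeq2, and 80 and 74 with size factors by median of ratios. Leaving out 1 library gave 53 to 82 higher and 78 to 91 lower, and leaving out replicate 1 of both groups gave 93 and 94, all genes of the table. Against the scaling used, no scaling moved the median log2 fold change by -0.20 and median-of-ratios size factors by 0.15.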
